A study of Mus musculus with 9 samples.

Results

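The transcripts of the mitochondrial genome were taken as every row that the deposited table places on chromosome MT, which are also the rows whose gene name starts with mt-. The rule gave 37 of the 54532 listed genes: 13 mRNA, 2 rRNA and 22 tRNA genes. RNA sequencing covered 9 libraries of B.END3, an endothelial cell line of brain microvessels. The labels give the organism as mouse and the strain as C57BL/6, while their growth protocol calls the cells rat. The table lists mouse genes. The 3 Ctrl libraries came from untreated cells. The 3 Ep1 and 3 Ep2 libraries came from cells that took up porfimer sodium (300 µg/mL, 90 min) and then received 635 nm light at 100 mW/cm2, to a dose of 10 J/cm2 in Ep1 and 20 J/cm2 in Ep2. Porfimer sodium is a porphyrin that forms reactive oxygen species under red light, and the procedure is called photodynamic therapy (PDT). No group among these libraries had the drug alone or the light alone, so the parts of the drug and of the light cannot be told apart. Nothing in the labels says that libraries of a group came from separate cultures, so p-values measure only the spread between these libraries, which may be technical.

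The mitochondrial genome is a small circle that is transcribed from both strands into long precursors. Most mRNAs, both rRNAs and most tRNAs are coded on one strand (rows listed on the plus strand, the heavy-strand transcripts), while mt-Nd6 and a smaller group of tRNAs are coded on the other (rows listed on the minus strand, the light-strand transcripts). The tRNAs lie between the other genes and are cut out of the precursors, which frees the mRNAs and rRNAs. The mRNAs encode core subunits of respiratory complexes I, III and IV and of ATP synthase, and the remaining subunits are encoded in the nucleus.

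The sequences below are those of 5 of the 6 tRNA genes called in at least 1 comparison (mt-Tw is not shown), of mt-Te, which was not called but was highest in the Ep1 libraries, and of mt-Atp8, whose whole sequence also stands in the nuclear genome. They were copied from the GENCODE M39 transcripts (GRCm39), 5′ to 3′ on the coding strand, in DNA letters. Capitals mark the anticodon, and the mature tRNA carries a CCA end that the genome does not encode.
mt-Ti: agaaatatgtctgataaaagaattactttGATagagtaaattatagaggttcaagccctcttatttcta
mt-Te: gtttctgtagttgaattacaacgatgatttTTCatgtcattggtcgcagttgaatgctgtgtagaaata
mt-Tl1: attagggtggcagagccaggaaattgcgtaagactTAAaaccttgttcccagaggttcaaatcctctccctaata
mt-Tl2: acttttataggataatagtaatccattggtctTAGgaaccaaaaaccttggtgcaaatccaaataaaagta
mt-Tn: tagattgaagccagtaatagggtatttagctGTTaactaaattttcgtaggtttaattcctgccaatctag
mt-Tp: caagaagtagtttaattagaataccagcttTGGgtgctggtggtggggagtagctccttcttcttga
mt-Atp8: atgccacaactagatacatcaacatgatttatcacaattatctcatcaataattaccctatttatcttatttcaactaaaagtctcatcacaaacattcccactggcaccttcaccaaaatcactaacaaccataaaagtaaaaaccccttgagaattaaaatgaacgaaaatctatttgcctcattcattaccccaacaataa

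On chromosome MT, of 16299 bases, the genes of these sequences lie at 3706 to 3774 (mt-Ti, plus strand), 14071 to 14139 (mt-Te, minus), 2676 to 2750 (mt-Tl1, plus), 11671 to 11741 (mt-Tl2, plus), 5089 to 5159 (mt-Tn, minus), 15356 to 15422 (mt-Tp, minus) and 7766 to 7969 (mt-Atp8, plus). All 37 listed positions were the same in GENCODE M39 on GRCm39 and in the RefSeq annotation of GRCm38. Every gene of this genome is a single exon. The mRNA mt-Atp8 overlaps mt-Atp6, mt-Nd4l overlaps mt-Nd4, and the 3′ end of mt-Nd5 overlaps that of mt-Nd6 on the opposite strand. Whether the counting used strand is not given in the sources used here, so reads of overlapping and antisense transcripts cannot be told apart.

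The values are FPKM, that is fragments scaled to gene length and to library size, as deposited. Each library's FPKM values, multiplied by gene length, were whole multiples of 1 common step (100% of values to within 0.05 of a multiple), and the multiples are the fragments counted per gene. The libraries held 16240688 to 19509225 fragments on genes. The label of a brain endothelial cell was checked against 12 endothelial markers: only Ly6c1, Flt1 and Eng reached 1 FPKM in 3 or more libraries, Emcn and Erg were at 0 in all libraries, Cdh5 had a mean of 0.863 FPKM, and Pecam1, Kdr, Tek, Vwf, Cldn5 and Tie1 were at or below 0.242 FPKM in every library. The summed FPKM of the 12 markers was 66.9 to 71.2 in Ctrl, 60.0 to 67.2 in Ep1 and 65.9 to 93.9 in Ep2. Most of this sum was Ly6c1, with 57.5, 61.5 and 59.3 FPKM in Ctrl and 51.9, 73.9 and 80.8 in Ep2. It was not called in any comparison. Flt1 was called higher in Ep2 than in Ctrl, with means of 10.9 and 6.90 FPKM. Of 5 epithelial markers 4 reached 1 FPKM in 3 or more libraries, with Krt8 at a mean of 628 FPKM. The summed FPKM of the 5 was 1029 to 1081 in Ctrl, 937 to 1041 in Ep1 and 1155 to 1372 in Ep2. In Ep2 3 of the 4 were called higher than in Ctrl, beside 23.9% of all tested genes. None was in Ep1, beside 6.32%. No pericyte, astrocyte or microglial marker passed that filter, and 1 of 4 neuronal markers (Tubb3, mean 1.34 FPKM) did. The part of these markers in any result below was not tested.

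Mitochondrial rows held 1.94% ± 0.0448 of all fragments in Ctrl, 2.04% ± 0.0427 in Ep1 and 2.27% ± 0.227 in Ep2 (mean ± SD, n = 3 libraries each). Every Ep1 and Ep2 library lay above the highest Ctrl library (1.99%), and the 3 Ep2 libraries were spread widely, at 2.04%, 2.27% and 2.49%. The difference between Ep2 and Ep1, 0.225 percentage points, was 0.341 without Ep2 replicate 1 and 0.113 without Ep2 replicate 3, and that between Ep2 and Ctrl went from 0.330 to 0.218 without Ep2 replicate 3. Nearly all of this came from the mRNA rows, with 1.85% ± 0.0369 in Ctrl, 1.94% ± 0.0480 in Ep1 and 2.17% ± 0.213 in Ep2. The rRNA rows took 0.0833% ± 0.00736 in Ctrl, 0.0939% ± 0.00559 in Ep1 and 0.0856% ± 0.0154 in Ep2, and these ranges overlapped. The tRNA rows took 0.00614% ± 0.000505 in Ctrl, 0.00726% ± 0.000422 in Ep1 and 0.00617% ± 0.000354 in Ep2. Each Ep1 library held a larger tRNA share than any other library, with a lowest value of 0.00697% against a highest of 0.00669% in Ctrl and 0.00653% in Ep2. The single row mt-Tl1 held 157, 131 and 147 fragments in Ep1, against 60, 62 and 89 in Ctrl and 63, 87 and 88 in Ep2. Whether the order of the tRNA shares holds without this row was not tested. These shares have no test. In bulk libraries, fewer cells of a type and less RNA per cell cannot be told apart.

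Levels differed far more between genes than between groups. The row with the highest mean was mt-Co1, which encodes the core subunit of cytochrome c oxidase, at 5292 FPKM over all libraries. It was followed by mt-Nd1 (3589.7), mt-Cytb (3003), mt-Nd2 (1570.3), mt-Nd5 (908), mt-Nd6 (644) and mt-Nd4 (643), which encode subunits of complexes I and III. The last 2 changed places: mt-Nd6 lay below mt-Nd4 in every Ctrl library and above it in every Ep2 library. The remaining mRNAs were far lower, at 79.3 FPKM for mt-Co2, 54.5 for mt-Atp6, 20.1 for mt-Co3, 15.1 for mt-Nd4l, 7.33 for mt-Nd3 and 2.75 for mt-Atp8. The rRNAs mt-Rnr1 and mt-Rnr2, which form the cores of the small and the large mitochondrial ribosomal subunit, had means of 263 and 389.8 FPKM. The study's methods do not say whether mRNA was selected or rRNA removed before sequencing. The levels of mRNA, rRNA and tRNA rows therefore cannot be compared with each other as levels in the cells. Among the tRNAs, mt-Tp led with 368 FPKM, followed by mt-Tl2 (157), both in this order in each group. The means over all libraries of mt-Tn (91.2), mt-Tl1 (71.9) and mt-Tc (70.1) came next, in an order that varied between groups.

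Of the 22 tRNA genes, 15 reached 1 FPKM in 3 or more libraries. The tRNAs for phenylalanine (mt-Tf), serine (mt-Ts1) and aspartate (mt-Td) had 0 fragments in all 9 libraries, where up to 3 fragments per library are still allowed by a count of 0. The arginine, glycine, valine and lysine tRNAs held 10 (mt-Tr), 3 (mt-Tg), 3 (mt-Tv) and 1 (mt-Tk) fragments over all libraries together. The rows of tRNA genes are 59 to 75 bases long and the reads 150 bases. A read on a tRNA row that matches the genome over its whole length therefore also covers bases outside that row. These can belong to a neighbouring row or, as beyond mt-Tp (15356 to 15422), the last row listed, to no row. The counts of tRNA rows may hold tRNA and precursor RNA, and these cannot be told apart.

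**Figure D1:**
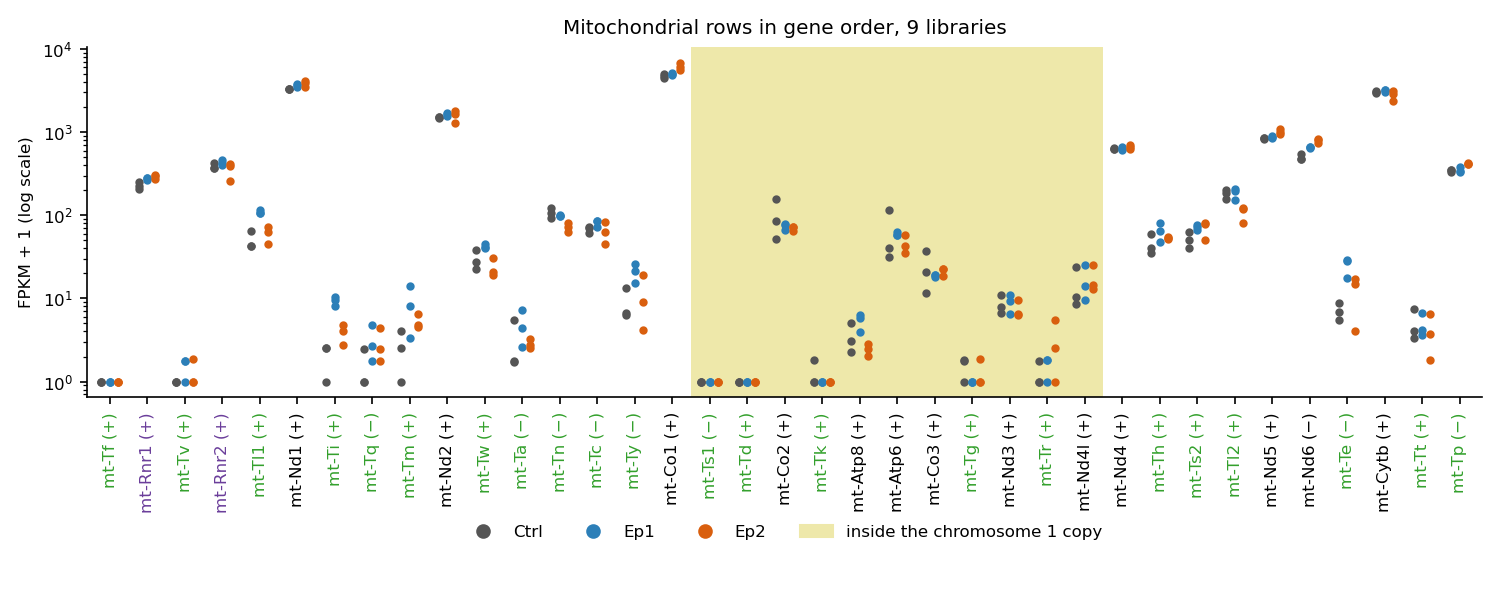
FPKM + 1 (log scale) of all 37 mitochondrial rows in gene order, with 1 point per library for Ctrl, Ep1 and Ep2. Label colours mark mRNA (black), rRNA (purple) and tRNA (green) genes, signs give the listed strand, and the shaded rows lie inside the long nuclear copy on chromosome 1, where the 6 mRNA rows have means of 2.75 to 79.3 FPKM.

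The 6 low mRNAs are neighbours, and their place matches the longest nuclear copy of the mitochondrial genome. A search of GRCm39 with blastn found a stretch of chromosome 1 (24650616 to 24655269) that aligned with positions 6390 to 11042 of chromosome MT at 99.936% identity, with 2 mismatches and 1 gap. Counted from position 1 of chromosome MT, mitochondrial base first, the differences are A6393T in mt-Co1, T9461C in mt-Nd3, and the gap at 9825 in mt-Tr. The mt-Atp8 sequence above is identical in this copy, so reads from inside it fit both places equally. Of the 150-base windows that overlap an mRNA by at least 75 bases, the share with a nuclear match of at most 2 mismatches was 100% for mt-Co2, mt-Atp8, mt-Atp6 and mt-Co3, 92.3% for mt-Nd4l and 83.7% for mt-Nd3. It was 58.2% for mt-Nd4, 46.1% for mt-Co1, 3.18% for mt-Nd2 and 0% for mt-Nd1, mt-Nd5, mt-Nd6 and mt-Cytb. Across the 13 mRNAs, which share libraries and neighbouring sequence, this share and the mean FPKM had a Spearman's rho of -0.752. How the authors treated reads with several matches is not given in the sources used here, and the part of the copy in these low levels was not tested. Of the tRNA genes inside the copy, mt-Ts1, mt-Td, mt-Tk and mt-Tg had such matches for 100% of their windows. Among the tRNAs shown above the share was 38.8% for mt-Tn, through another copy, and 0% for the other 5.

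The table also lists nuclear rows on that copy. The 3 highest were Gm28438, which copies mt-Nd3, at a mean of 136.8 FPKM, Gm28661, which copies mt-Co2, at 61.7 FPKM, and Gm10925, which copies mt-Atp6, at 47.3 FPKM. Of the fragments on mt-Nd3 and its copy as a sum, 94.9% were listed on the copy. This share was 62.6% for mt-Nd4l, 53.0% for mt-Co3, 46.2% for mt-Atp6 and 43.6% for mt-Co2, against 0.603% for mt-Nd4 and 0.0983% for mt-Co1, which lie only partly inside it. Ctrl replicate 3 stood apart on both sides. Its 6 copied mRNA rows summed to 339 FPKM against 116 to 190.4 in the other libraries, and its 7 nuclear rows to 445 FPKM against 227 to 373. The FPKM of mt-Co2 was 84.5, 50.2 and 154 in Ctrl, 65.9, 76.3 and 77.7 in Ep1, and 70.7, 63.4 and 71.2 in Ep2. For mt-Atp6 it was 39.3, 30.3 and 114 in Ctrl, 56.5, 61.7 and 56.2 in Ep1, and 57.3, 34.5 and 41.3 in Ep2. Ctrl replicate 3 was the highest library of all for both, and the groups overlapped. Neither was called in any comparison below, except that mt-Co2 was lower in Ep2 than in Ctrl without Ctrl replicate 2 (log2 fold change -0.73, adjusted p = 0.0361 in limma). The mRNAs mt-Co3 (10.6 to 36.3 FPKM over all libraries), mt-Nd3 (5.38 to 10.1) and mt-Nd4l (7.68 to 24.5) overlapped between groups as well.

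**Figure D2:**
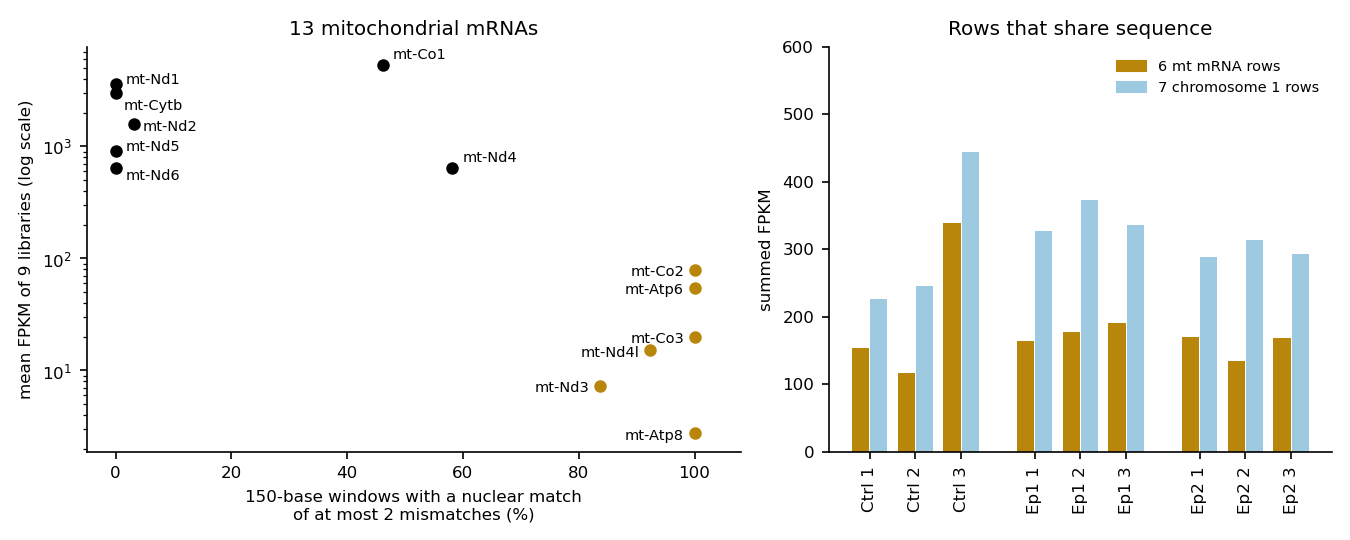
Left, mean FPKM over 9 libraries (log scale) of the 13 mitochondrial mRNAs against the percent of their 150-base windows with a nuclear match of at most 2 mismatches, with the 6 mRNAs inside the chromosome 1 copy in gold. Right, summed FPKM per library of these 6 rows and of the 7 nuclear rows on the copy, where Ctrl replicate 3 is the highest for both, at 339 and 445 FPKM.

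Differences between groups were tested with limma on log2(FPKM + 1) of the 11727 genes that reached 1 FPKM in 3 or more libraries. All log2 fold changes below are on this scale, on which the pseudocount of 1 pulls the change of low genes towards 0. A gene was called at an adjusted p-value below 0.05, and DEGs also had an absolute log2 fold change above 0.6. Of the mitochondrial rows 30 could be tested: 13 mRNAs, 2 rRNAs and 15 tRNAs. The 7 other tRNAs were too low to be tested in any group.

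Between Ep1 and Ctrl, 4 of the 30 tested rows were called, all of them higher in Ep1: mt-Nd6, mt-Rnr1, mt-Tl1 and mt-Ti. They were 1 of 13 mRNAs, 1 of 2 rRNAs and 2 of 15 tRNAs. This was 13.3% of the tested rows, beside 11.3% of all tested genes (6.32% higher and 4.97% lower). Both called tRNAs were also DEGs, as were 0.793% of all tested genes (0.571% higher and 0.222% lower). The libraries of both groups did not overlap for 11 of the 30 rows (36.7%), all higher in Ep1, beside 41.3% of all tested genes (20.8% higher and 20.5% lower).

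Between Ep2 and Ctrl, 8 of the 30 rows were called, which is 26.7% beside 53.2% of all tested genes. The 4 mRNAs mt-Co1, mt-Nd1, mt-Nd5 and mt-Nd6, the rRNA mt-Rnr1 and the tRNA mt-Tp were higher in Ep2 (6 rows, beside 23.9% of all tested genes that were higher), while the tRNAs mt-Tl2 and mt-Tn were lower (2 rows, beside 29.3%). Of these mt-Nd6 and mt-Tl2 were DEGs, as were 9.17% of all tested genes (3.3% higher and 5.87% lower). The groups did not overlap for 10 of the 30 rows (33.3%; 8 higher and 2 lower), beside 59.7% of all tested genes (27% higher and 32.7% lower).

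Between Ep2 and Ep1, 10 of the 30 rows were called, which is 33.3% beside 44% of all tested genes (18.8% higher and 25.2% lower). Higher in Ep2 were mt-Co1, mt-Nd5, mt-Nd6 and mt-Tp, and lower were mt-Atp8, mt-Tl1, mt-Tl2, mt-Tn, mt-Tw and mt-Ti. The 5 DEGs, all lower, were mt-Atp8, mt-Tl1, mt-Tl2, mt-Tw and mt-Ti, beside 5.9% of all tested genes (1.94% higher and 3.97% lower). The groups did not overlap for 11 of the 30 rows (36.7%; 4 higher and 7 lower), beside 54.4% of all tested genes (24.1% higher and 30.3% lower). In each comparison, then, the share of mitochondrial rows called at an adjusted p below 0.05 was near or below that of all tested genes. This reading does not extend to DEGs in Ep1 against Ctrl or between the doses, where their share was above that of all tested genes. Of the 30 rows, 2 were DEGs in Ep1 against Ctrl, beside 0.793% of all tested genes. Between the doses 5 were DEGs, beside 5.9%. In Ep2 against Ctrl 2 of the 30 were DEGs, a share below the 9.17% of all tested genes. For the tested mRNAs the median log2 fold change against Ctrl was 0.09 in Ep1 and 0.05 in Ep2, beside -0.01 and -0.03 over all tested genes. For the tested tRNAs the median was 0.55 in Ep1 (14 of 15 above 0; the value of mt-Tw) and 0.26 in Ep2 (10 of 15 above 0), and -0.48 between Ep2 and Ep1 (14 of 15 below 0, beside a median of -0.01 over all tested genes). Both comparisons with Ctrl share the Ctrl libraries.

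The complex I mRNA mt-Nd6 (ENSMUSG00000064368, 13552 to 14070, minus strand), which is the only light-strand mRNA, was the only one to be called in all 3 comparisons. Its FPKM was 475, 469 and 539 in Ctrl, 636, 668 and 655 in Ep1, and 805, 733 and 814 in Ep2. Every Ep1 library lay above every Ctrl library, and every Ep2 library above every Ep1 library. Against Ctrl, its log2 fold change was 0.40 (SE 0.06) in Ep1 and 0.67 (SE 0.06) in Ep2, with limma's adjusted p = 0.00879 and 2.97e-05, and 0.26 between the doses (adjusted p = 0.00719). It remained called in all 3 comparisons under every alternative fit and without any single library. The ratio of mt-Nd6 to its opposite-strand neighbour mt-Nd5, another complex I mRNA, was 0.585 ± 0.0522 in Ctrl, 0.747 ± 0.0157 in Ep1 and 0.782 ± 0.0616 in Ep2. The Ctrl ratios (0.549 to 0.645) lay below all Ep1 and Ep2 ratios, and those of Ep1 (0.735 to 0.765) and Ep2 (0.737 to 0.852) overlapped.

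Among the heavy-strand mRNAs of complex I, mt-Nd5 (11742 to 13565) stood at 846, 854 and 836 FPKM in Ctrl, 858, 873 and 891 in Ep1, and 944, 995 and 1074 in Ep2. The groups did not overlap, but the step from Ctrl to Ep1 was small. In Ep2 the log2 fold change was 0.25 (SE 0.05) against Ctrl (limma's adjusted p = 0.00191) and 0.20 against Ep1 (adjusted p = 0.00795), and 0.05 in Ep1 (adjusted p = 0.542). For mt-Nd1 (2751 to 3707) the FPKM was 3331, 3296 and 3316 in Ctrl, 3468, 3705 and 3771 in Ep1, and 3443, 3845 and 4131 in Ep2, so that all treated libraries lay above Ctrl. It was called in Ep2 (log2 fold change 0.20, SE 0.06, adjusted p = 0.0250 in limma) and not in Ep1 (0.14, adjusted p = 0.180). The call in Ep2 was lost, at an adjusted p of 0.0578 to 0.0709 in limma, without any of the 3 Ctrl libraries, Ep2 replicate 2 or Ep2 replicate 3, and at 0.0618 without a filter on low genes. The complex I mRNAs mt-Nd2 and mt-Nd4 were not called in any comparison. For mt-Nd2 the FPKM was 1538, 1509 and 1466 in Ctrl, 1576, 1649 and 1688 in Ep1, and 1301, 1633 and 1772 in Ep2. Ep2 replicate 1 was the lowest library, and without it mt-Nd2 was called in Ep2 against Ctrl (0.18, limma's adjusted p = 0.0127). For mt-Nd4 the means of Ctrl, Ep1 and Ep2 were 632, 631 and 665 FPKM.

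The complex IV mRNA mt-Co1 (5328 to 6872) had 4512, 4670.4 and 4935 FPKM in Ctrl, 5006, 4909 and 5076 in Ep1, and 5614, 6121 and 6787 in Ep2. The Ep2 libraries lay above all others, while Ctrl and Ep1 overlapped. In Ep2 the log2 fold change was 0.39 (SE 0.06) against Ctrl (limma's adjusted p = 0.000857), 0.30 against Ep1 (adjusted p = 0.00477) and 0.09 in Ep1 against Ctrl (adjusted p = 0.405). The complex III mRNA mt-Cytb (14145 to 15288) stood at 3062, 3119.8 and 2959 FPKM in Ctrl, 3013, 3238 and 3247 in Ep1, and 2351, 2882 and 3156 in Ep2. It was not called in limma (log2 fold change -0.13 in Ep2 against Ctrl, adjusted p = 0.251), with groups that overlapped and Ep2 replicate 1 the lowest library. Without Ep2 replicate 3 it was called lower in Ep2 than in Ctrl (-0.23, adjusted p = 0.0413) and than in Ep1 (-0.28, adjusted p = 0.0209). The ratio of mt-Co1 to mt-Cytb in FPKM was 1.55 ± 0.106 in Ctrl, 1.58 ± 0.0741 in Ep1 and 2.22 ± 0.145 in Ep2. Its Ep2 values (2.12 to 2.39) lay above all Ctrl and Ep1 values (1.47 to 1.67). In fragments, mt-Co1 made up 39.7% of the mitochondrial mRNA in Ctrl and in Ep1 and 44.9% in Ep2.

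The ATP synthase mRNA mt-Atp8, at 4 to 20 fragments a library, had 4.07, 1.25 and 2.11 FPKM in Ctrl, 4.78, 2.92 and 5.28 in Ep1, and 1.80, 1.05 and 1.48 in Ep2. All Ep2 libraries lay below all Ep1 libraries, and Ctrl overlapped both. The difference between the doses was called in limma (log2 fold change -1.11, SE 0.30, adjusted p = 0.0194). The call was lost without Ep1 replicate 1 or 3 or Ep2 replicate 2 or 3, at adjusted p-values of 0.0531 to 0.0663. This row lies wholly inside the chromosome 1 copy, and no listed nuclear row copies it. When the fragments of the nuclear rows were added to the mitochondrial rows they copy, an alternative chosen after seeing the data, mt-Nd3 was called higher in Ep1 than in Ctrl (0.44, limma's adjusted p = 0.0270) and lower in Ep2 than in Ep1 (-0.34, adjusted p = 0.0190), while mt-Co2, mt-Atp6, mt-Co3 and mt-Nd4l were not called in any comparison. Nearly all fragments of that summed mt-Nd3 row came from Gm28438.

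Of both rRNAs, only that of the small subunit was called. The small-subunit rRNA mt-Rnr1 (ENSMUSG00000064337, 70 to 1024) had 205, 224 and 250.3 FPKM in Ctrl, 279, 278 and 261 in Ep1, and 272, 301 and 299 in Ep2. All treated libraries lay above all Ctrl libraries, and Ep1 and Ep2 overlapped. Against Ctrl, it changed by 0.27 (SE 0.07) on the log2 scale in Ep1 and 0.36 (SE 0.07) in Ep2, with limma's adjusted p = 0.0417 and 0.00230. The call in Ep1 was lost in each fit without 1 library other than Ctrl replicate 3 (adjusted p = 0.0868 to 0.135), and also without a filter on low genes (0.12) or with scaling to nuclear fragments (0.0516), while that in Ep2 held in every fit. The large-subunit rRNA mt-Rnr2 (1094 to 2675) had 365, 370.2 and 420.1 FPKM in Ctrl, 463, 428 and 401 in Ep1, and 254, 394 and 413 in Ep2. Its groups overlapped and it was not called, with Ep2 replicate 1 the lowest library. The ratio of mt-Rnr2 to mt-Rnr1 was 1.71 ± 0.0695 in Ctrl, 1.58 ± 0.0721 in Ep1 and 1.21 ± 0.240 in Ep2. Every Ep2 ratio (0.935 to 1.38) was below every Ctrl and Ep1 ratio (lowest 1.53). The difference between Ep2 and Ep1 went from -0.37 to -0.23 without Ep2 replicate 1.

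**Figure D3:**
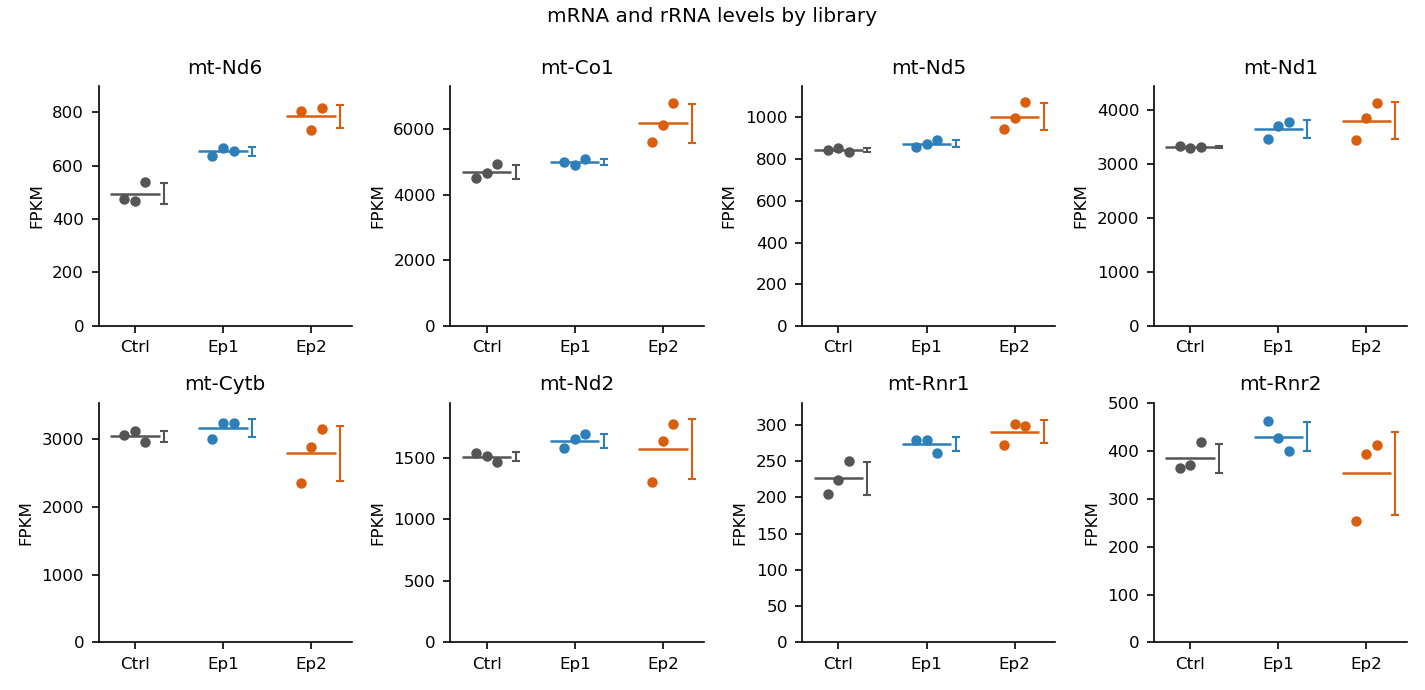
FPKM per library of 6 mRNAs and both rRNAs in Ctrl, Ep1 and Ep2, where points are libraries in the order of their numbers, lines are group means and bars are ± SD (n = 3). The mt-Nd6 groups do not overlap (475, 469 and 539 FPKM in Ctrl, 805, 733 and 814 in Ep2), and Ep2 replicate 1 is the lowest library for mt-Cytb, mt-Nd2 and mt-Rnr2.

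Of the tRNA rows with calls, some were highest in Ep1, some lowest in Ep2 and 1 highest in Ep2. The leucine tRNA mt-Tl1, which lies between mt-Rnr2 and mt-Nd1, had 41.5, 42.3 and 63.9 FPKM in Ctrl, 113, 104 and 106 in Ep1, and 44.1, 62.0 and 70.7 in Ep2. The Ep1 libraries lay above all others, and Ctrl and Ep2 overlapped. Its log2 fold change was 1.14 (SE 0.21) in Ep1 against Ctrl (limma's adjusted p = 0.0171) and -0.89 in Ep2 against Ep1 (adjusted p = 0.00982). The call in Ep1 was lost without Ctrl replicate 1 or 2 or Ep1 replicate 1 or 3, at adjusted p-values of 0.0608 to 0.0740. As a percentage of the FPKM of its downstream neighbour mt-Nd1, which was not called in Ep1, mt-Tl1 stood at 1.48 ± 0.383 in Ctrl, 2.96 ± 0.268 in Ep1 and 1.53 ± 0.226 in Ep2. The Ep1 percentages (2.80 to 3.27) lay above all others (highest 1.93).

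The isoleucine tRNA mt-Ti, whose first bases overlap the end of mt-Nd1, held 2, 0 and 2 fragments in Ctrl, 11, 11 and 9 in Ep1, and 5, 4 and 2 in Ep2. The Ep1 libraries again lay above all others. It was called in Ep1 against Ctrl and in Ep2 against Ep1 (limma's adjusted p = 0.0126 and 0.0241). With so few fragments, the fitted log2 fold change of Ep1 against Ctrl depends on the pseudocount: it was 2.33 with 1 and 3.71 with 0.1, where the call was lost (adjusted p = 0.0560), as was that between the doses (0.249). The call in Ep1 was also lost without Ep1 replicate 3 (adjusted p = 0.0509 in limma), and that between the doses without Ep1 replicate 1 or 2 or Ep2 replicate 3 (0.0600 to 0.0849). In Ep2 against Ctrl mt-Ti just missed the threshold (adjusted p = 0.0502), and it passed without Ctrl replicate 1 (0.0422), Ctrl replicate 3 (0.0325) or Ep2 replicate 3 (0.0461). With all libraries kept it also passed with median centring (0.0423), scaling to nuclear fragments (0.0485) or nuclear copy rows added (0.0499).

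The glutamate tRNA mt-Te, coded on the minus strand beside mt-Nd6, had 4.51, 5.93 and 7.80 FPKM in Ctrl, 28.3, 16.4 and 27.3 in Ep1, and 3.04, 16.3 and 14.0 in Ep2. Every Ep1 library lay above every other library in FPKM. The margin to Ep2 was very small, with 19 fragments in Ep1 replicate 2 and 21 in Ep2 replicate 2. In Ep1 against Ctrl the log2 fold change of 1.81 (SE 0.53) did not pass in limma (adjusted p = 0.0653). It passed with voom on the recovered fragments (1.91, adjusted p = 0.0163). In Ep2 against Ctrl it was called only without Ep2 replicate 1 (1.21, limma's adjusted p = 0.0132). The tryptophan tRNA mt-Tw had 21.7, 37.4 and 26.5 FPKM in Ctrl, 40.4, 39.2 and 44.2 in Ep1, and 18.0, 19.9 and 29.7 in Ep2, again with Ep1 above the rest. It was called between the doses (-0.87, SE 0.22, adjusted p = 0.0150 in limma) and not in Ep1 against Ctrl (0.55, adjusted p = 0.150). That call was lost without Ep1 replicate 3 (adjusted p = 0.0504) or Ep2 replicate 1 (0.0577). Of the 150-base windows on mt-Tw, 24.3% had a nuclear match of at most 2 mismatches.

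The tRNAs that were lowest in Ep2 were mt-Tl2 and mt-Tn, which carry leucine and asparagine. For mt-Tl2 the FPKM was 158, 182 and 203 in Ctrl, 150.3, 196 and 206 in Ep1, and 123, 117 and 79.7 in Ep2. For mt-Tn it was 92.0, 120.2 and 106 in Ctrl, 98.4, 95.7 and 96.4 in Ep1, and 70.9, 79.8 and 61.1 in Ep2. In both, the 3 Ep2 libraries lay below all 6 others, and Ctrl and Ep1 overlapped. In Ep2 against Ctrl the log2 fold change was -0.78 (SE 0.19) for mt-Tl2 and -0.58 (SE 0.11) for mt-Tn, with adjusted p = 0.00942 and 0.00188 in limma. Against Ep1 it was -0.80 and -0.46 (adjusted p = 0.0107 and 0.00848). These calls held in every alternative fit and without any single library.

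The proline tRNA mt-Tp, on the minus strand, went the other way. Its FPKM was 348, 326 and 352 in Ctrl, 339, 327 and 383 in Ep1, and 409.5, 412 and 419.7 in Ep2. The Ep2 libraries lay close together and above all others. In Ep2 it rose by 0.28 (SE 0.06) on the log2 scale against Ctrl (limma's adjusted p = 0.00346) and 0.25 against Ep1 (adjusted p = 0.00802), and both calls held in every fit. Of all tRNA fragments, mt-Tp made up 37.8% ± 3.01 in Ctrl, 32.1% ± 0.856 in Ep1 and 46.0% ± 2.72 in Ep2. Of the 2 leucine tRNAs, mt-Tl1 was called in Ep1 and mt-Tl2 had a log2 fold change of 0.02 there, and the difference between them was not tested.

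Of the other 8 tested tRNAs none was called in any comparison in limma on log2(FPKM + 1) with all libraries. The serine tRNA mt-Ts2 had means of 50.3, 71.0 and 68.7 FPKM in Ctrl, Ep1 and Ep2, the histidine tRNA mt-Th 43.9, 63.8 and 52.0, and the cysteine tRNA mt-Tc 67.3, 80.7 and 62.2. The tyrosine tRNA mt-Ty had means of 7.78, 19.8 and 9.86 FPKM, and its Ep1 libraries lay above its Ctrl libraries, with an adjusted p of 0.163 in limma. With voom on the recovered fragments, mt-Ty was called lower in Ep2 than in Ep1 (-1.24, adjusted p = 0.0451). Without Ep2 replicate 2, mt-Ty (-1.73, adjusted p = 0.0232) and mt-Tc (-0.61, adjusted p = 0.0136) were called lower in Ep2 than in Ep1. Without Ep2 replicate 1 or Ctrl replicate 3, mt-Ts2 was called higher in Ep2 than in Ctrl (0.65 and 0.59, adjusted p = 0.0193 and 0.0460). The tRNAs for methionine (mt-Tm), glutamine (mt-Tq), alanine (mt-Ta) and threonine (mt-Tt) held 17 to 49 fragments over all libraries together.

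**Figure D4:**
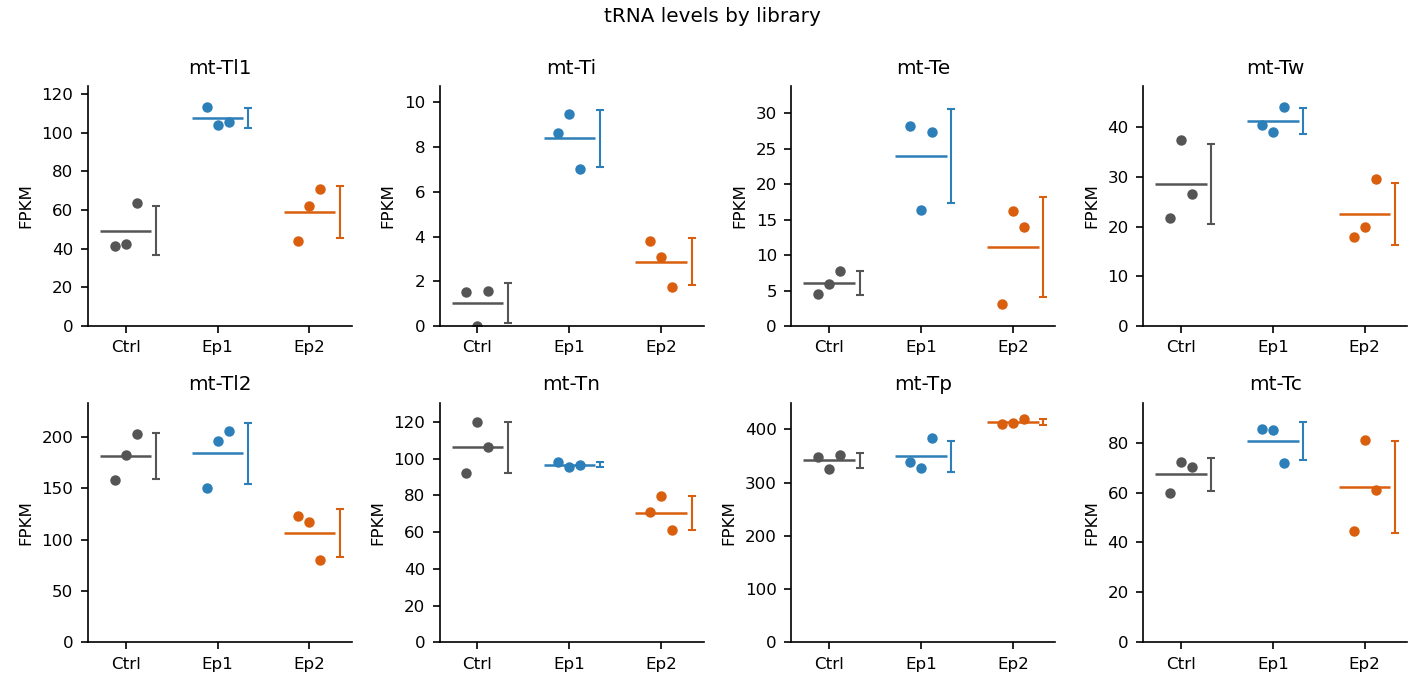
FPKM per library of 8 mitochondrial tRNA genes in Ctrl, Ep1 and Ep2, where points are libraries in the order of their numbers, lines are group means and bars are ± SD (n = 3). For mt-Tl1, mt-Ti, mt-Te and mt-Tw the Ep1 libraries are the highest, for mt-Tl2 and mt-Tn the Ep2 libraries are the lowest, and for mt-Tp they are the highest.

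**Figure D5:**
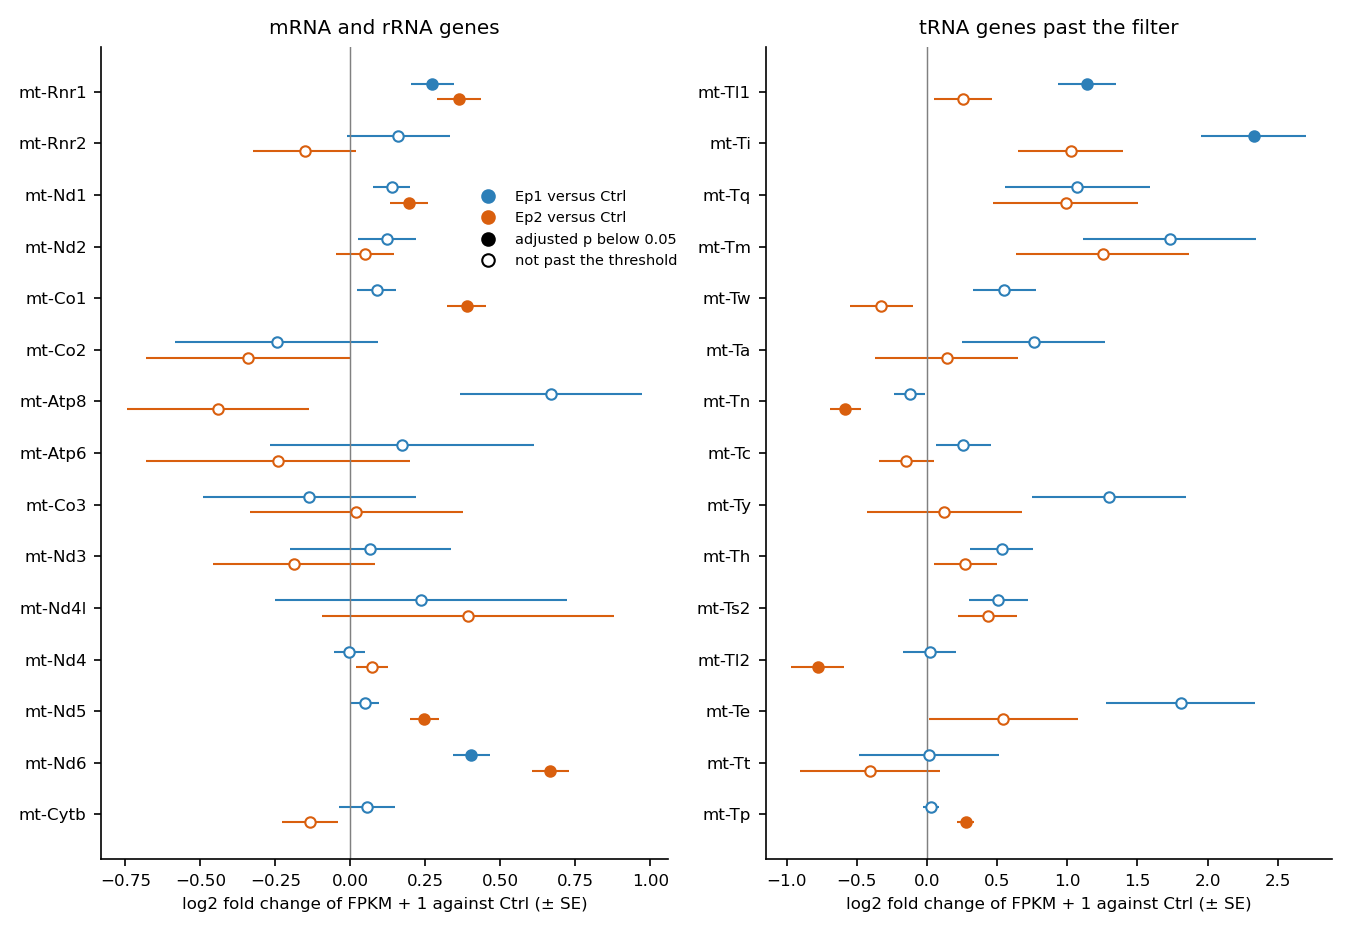
Log2 fold change of FPKM + 1 against Ctrl (± SE) for the 15 mRNA and rRNA genes and the 15 tested tRNA genes in Ep1 and Ep2, with filled points for an adjusted p below 0.05 in limma. The panels have different scales: mRNA and rRNA values lie between -0.44 and 0.67, and tRNA values between -0.78 and 2.33, with 14 of 15 tRNAs above 0 in Ep1.

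The nuclear subunits of the same complexes were mostly lower in Ep2. Of 74 tested nuclear subunits of complexes I, III, IV and V, 10 were lower and 0 higher in Ep1 than in Ctrl. In Ep2, 49 were lower and 1 higher, with a median log2 fold change of -0.30. Between the doses 30 (40.5%) were lower and 4 (5.41%) higher in Ep2, beside 25.2% and 18.8% of all tested genes. Against Ctrl, those lower made up 13.5% in Ep1 and 66.2% in Ep2, beside 4.97% and 29.3% of all tested genes. The called genes with the largest falls in Ep1 were Ndufa1 in complex I (-0.48), Uqcr11 in complex III (-0.44), Cox7c in complex IV (-0.30) and Atp5j2 in ATP synthase (-0.26). In complex I, 25 of 36 nuclear subunits were lower in Ep2, and Ndufs6 fell most, with 52.3 ± 1.11 FPKM in Ctrl and 26.4 ± 6.29 in Ep2 (-0.99 on the log2 scale, limma's adjusted p = 0.000555). In complex III, 5 of 9 were lower, among them Uqcr11 (-0.90), and Uqcrfs1, the Rieske iron-sulfur subunit, was higher (0.12). In complex IV, 8 of 13 were lower (Cox5b, -0.55), and in ATP synthase, 11 of 16 (Atp5g1, a c-ring subunit, -0.81). Of the 13 mitochondrial mRNAs of these complexes, 4 (30.8%) were called in Ep2 against Ctrl: mt-Nd1, mt-Nd5, mt-Nd6 and mt-Co1. All 4 were higher, beside 23.9% of all tested genes that were higher. They belong to complexes I and IV, and the median log2 fold change of the 13 mRNAs was 0.05. In complex III and ATP synthase, mt-Cytb (-0.13), mt-Atp6 (-0.24) and mt-Atp8 (-0.44) were not called.

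Of 23 tested genes for transcription and maintenance of mitochondrial DNA, 7 (30.4%) were lower and 2 (8.7%) higher in Ep2 than in Ctrl, beside 29.3% and 23.9% of all tested genes, so the share lower was that of the background. Among them were Mrpl12, a ribosomal protein that also binds the mitochondrial RNA polymerase, at -0.98 (84.2 ± 2.10 FPKM in Ctrl and 42.2 ± 2.98 in Ep2, limma's adjusted p = 2.85e-06) and the termination factor family member Mterf3 at 0.47. Only Mterf4, a factor of the same family, was called in Ep1 (-0.26). Of 33 genes for processing and decay of mitochondrial RNA, 18 (54.5%) were lower and 2 (6.06%) higher in Ep2, among them the rRNA methyltransferases Mrm3 (-0.62) and Mrm1 (0.23). In Ep1, 2 were lower and 2 higher (6.06% each, beside 4.97% and 6.32% of all tested genes), with the poly(A) polymerase Mtpap at 0.31 and the methyltransferase Mrm2 at -0.36. Of 17 genes for the modification of mitochondrial tRNA, 2 (11.8%) were lower and 1 (5.88%) higher in Ep1, and 8 (47.1%) lower and 1 higher in Ep2. Gtpbp3, which modifies the wobble uridine of some tRNAs, fell from 10.1 ± 0.605 FPKM in Ctrl to 6.71 ± 0.235 in Ep1 and 4.54 ± 0.575 in Ep2 (log2 fold change -0.53 and -1.01, adjusted p = 0.00795 and 1.14e-05 in limma), and Yrdc, an enzyme of the threonylcarbamoyl modification, rose by 0.50 in Ep1 and 0.14 in Ep2. Of 13 tested regulators of mitochondrial biogenesis, 3 were higher and 3 lower in Ep1 (23.1% each), beside 6.32% and 4.97% of all tested genes. In Ep2, 5 (38.5%) were higher and 4 (30.8%) lower, beside 23.9% and 29.3% of all tested genes. In Ep1 the deacetylase Sirt1 rose by 0.43 and the nuclear receptor Esrra fell by 0.40 on the log2 scale, and in Ep2 Myc rose by 0.69 and Esrra fell by 0.60. Between the doses Nrf1, a transcription factor of mitochondrial biogenesis, was lower in Ep2 (-0.44).

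The nuclear RNA Malat1, which was read as a sign of library composition, changed by -0.40 in Ep1 (adjusted p = 0.00975 in limma) and by 0.26 in Ep2 (adjusted p = 0.00669), and Neat1 had -0.68 in Ep1 (adjusted p = 0.0653) and was called higher in Ep2 than in Ep1 (0.68, adjusted p = 0.0257). Their part in the mitochondrial values was not tested.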

How the data were processed

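Per the labels and the study's methods, total RNA of B.END3 cells was sequenced as 150 bp paired-end reads. The study's methods name no selection of mRNA and no removal of rRNA. The authors aligned the reads and deposited FPKM values for 54532 genes in 9 libraries. The 9 single tables equal the joint table. The methods name GRCm39 and the submitters' processing notes mm8 and Bowtie 0.12.2, while listed positions overlapped GRCm38 for 99.89% of 37608 genes and GRCm39 for 10.92% of 50414. The counting tool is not given in the sources used here. Groups follow the sample titles.

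Fragments were recovered from FPKM times gene length. The library size implied by this step was 0.995 to 1.03 times the summed fragments. The 11727 genes that reached 1 FPKM in 3 or more libraries were tested on log2(FPKM + 1) by limma 3.58.1 (R 4.3.3; lmFit, eBayes with trend and robust estimation, all 9 libraries, no covariate), with Benjamini-Hochberg adjustment within each comparison. The procedure was tested on simulated data. Changes were simulated only in genes with many fragments, so this does not cover rows with few, such as mt-Ti, mt-Te and mt-Atp8. Libraries of a group differed by more than counting noise (chi-square per degree of freedom 2.81 to 15.25), and floors cover counting error only. Nuclear copies were searched with blastn 2.17.0 (154 nuclear matches). Tables and figures used matplotlib 3.10.9, scipy 1.17.1, pandas 2.3.3 and numpy 2.4.6 under Python 3.11.15.

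All mitochondrial mRNAs, rRNAs and tested tRNAs are named, and from the nuclear lists genes with the largest rise or fall among called genes. The members and the lists were chosen with earlier results of these data known. The alternatives were a pseudocount of 0.1, no filter, a filter at an FPKM of 5, median centring, scaling to nuclear fragments, only the groups compared, a replicate block, voom on genes with at least 10 fragments in 3 libraries (also with size factors of nuclear genes), each library left out and, chosen after seeing the data, nuclear copy rows added. For the shares and the ratios, the only alternative was each library left out, and the nuclear lists had none.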

Additional observations from a re-analysis of the deposited data

Results flagged for a closer look

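In 3 mitochondrial rows the effects of both light doses against Ctrl had opposite signs and the difference between the doses passed the test. For mt-Atp8 the log2 fold change was 0.67 in Ep1 and -0.44 in Ep2, a difference of -1.11 (limma's adjusted p = 0.0194). For mt-Tl2 it was 0.02 in Ep1 and -0.78 in Ep2, a difference of -0.80 (adjusted p = 0.0107), so the first is close to 0. For mt-Tw it was 0.55 in Ep1 and -0.32 in Ep2, a difference of -0.87 (adjusted p = 0.0150). Among the 6 single effects against Ctrl, only that of mt-Tl2 in Ep2 passed the test itself. The mt-Atp8 row rests on 4 to 20 fragments a library and lies inside the chromosome 1 copy, whose part in this difference was not tested.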

How the results depend on the processing

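The 22 calls of mitochondrial rows kept their direction in every fit, and 15 of them stayed called in every fit made. Over the alternatives that kept all libraries, 209 of 215 values stayed called and 6 did not: mt-Rnr1 in Ep1 without a filter (adjusted p = 0.12), scaled to nuclear fragments (0.0516) and with the replicate block (0.0523), mt-Nd1 in Ep2 without a filter (0.0618), and mt-Ti with a pseudocount of 0.1 in Ep1 (0.0560) and between the doses (0.249), all in limma. The cause was not tested. Leaving out 1 library lost 24 of 132 values.

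In Ep1 against Ctrl the number of called mRNAs was 2 in place of 1 with only the groups compared, where mt-Nd1 was added, and with the nuclear copy rows added. The number of called rRNAs was 0 in place of 1 without a filter, scaled to nuclear fragments and with the replicate block, and 0 to 1 with 1 library left out. The number of called tRNAs was 1 in place of 2 with a pseudocount of 0.1, 3 with only the groups compared, where mt-Te was added (adjusted p = 0.0167), and 0 to 2 with 1 library left out. It was 0 without Ep1 replicate 3, and 1 without Ctrl replicate 1, Ctrl replicate 2 or Ep1 replicate 1. In Ep2 against Ctrl the tRNAs called with 1 library left out were 3 to 5, with 5 without Ctrl replicate 3 or Ep2 replicate 1. Between the doses 9 tRNAs in place of 6 were called without Ep2 replicate 2, and mt-Te (adjusted p = 0.0246) and mt-Ty (0.0451) were called with voom. Over all tested genes, the 1324 calls in Ep1 became 396 without a filter, 2162 with only the groups compared and 1993 with voom. With 1 Ctrl library left out they became 392 (replicate 1 left out) and 192 (replicate 2), and with 1 Ep1 library left out 379, 844 and 199 (replicates 1, 2 and 3). With 1 library left out, the differences between groups in the share of mitochondrial fragments kept their direction, as did those in the ratios of mt-Nd6 to mt-Nd5 and of mt-Rnr2 to mt-Rnr1. The ratio of mt-Nd6 to mt-Nd5 differed between Ep2 and Ep1 by 0.0355, and by 0.000515 without Ep2 replicate 1 or 0.0584 without Ep2 replicate 2. That of mt-Co1 to mt-Cytb differed between Ep1 and Ctrl by 0.0342, and by -0.00632 to 0.0950 with 1 library left out, with the sign changed without Ctrl replicate 1 or Ep1 replicate 1.

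Replicate numbers did not pair the libraries: deviations of same-numbered libraries correlated at -0.0565 to 0.0744. With the replicate block 21 of 22 calls held, and the other was mt-Rnr1 in Ep1. With voom mt-Ti, and at the filter of 5 FPKM mt-Atp8, had too few fragments to be tested. Depth limits the tRNA rows and mt-Atp8, with fewer than 100 fragments over all libraries for each of mt-Ti, mt-Tq, mt-Tm, mt-Ta, mt-Tt and mt-Atp8.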

Other observations

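By strand, 22 of the tested mitochondrial rows are listed on the plus strand and 8 on the minus strand. In Ep1 against Ctrl, the minus-strand rows had a median log2 fold change of 0.58 and the plus-strand rows of 0.15. In Ep2 the medians against Ctrl were 0.21 and 0.06, and between Ep2 and Ep1 they were -0.43 and -0.22. Of the minus-strand rows 7 of 8 are tRNAs, against 8 of 22 plus-strand rows, and the part of class in the strand medians was not tested. Of the minus-strand rows, mt-Nd6 and mt-Tp were called higher and mt-Tn lower in Ep2. Of all 13 mRNA rows mt-Nd6 had the largest log2 fold change in Ep2. It was also set against the summed FPKM of the 6 heavy-strand mRNAs that do not lie wholly inside the chromosome 1 copy (mt-Nd1, mt-Nd2, mt-Co1, mt-Nd4, mt-Nd5 and mt-Cytb). As a percentage of that sum mt-Nd6 stood at 3.52 ± 0.262 in Ctrl, 4.37 ± 0.0922 in Ep1 and 4.93 ± 0.611 in Ep2. The Ctrl percentages (3.32 to 3.81) lay below all others (lowest 4.27).

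The minus-strand tRNAs between mt-Nd2 and mt-Co1 lie next to each other and moved differently. In Ep2 against Ctrl the asparagine tRNA mt-Tn was called lower, and the alanine, cysteine and tyrosine tRNAs had log2 fold changes of 0.14 (mt-Ta), -0.15 (mt-Tc) and 0.12 (mt-Ty), none of them past the test in limma.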
